A study of Mus musculus with 6 samples.

Results

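RNA of cells recovered by bronchoalveolar lavage, a rinse of the lung's airspaces that collects mainly immune cells, was compared in mice between animals lacking CIS and animals lacking CIS and STAT6. The comparison used 4 of the series' 6 libraries, all of them sequenced as bulk RNA: Cis_KO replicates 1 and 2 and Cis_Stat6_DKO replicates 1 and 2. Both groups share the loss of CIS, so the difference in genotype between them is the added loss of STAT6. The remaining 2 libraries, of the genotype WT, entered the same fit to help estimate the spread and are given beside many of the results. No animal was treated, and 1 date is given for all libraries. The sources used here do not give the alleles, strain, age or sex of the animals. Nor do the labels say that replicates came from separate animals, so p-values measure only the spread between these samples, which may be technical.

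CIS, the protein of Cish, is an SH2-domain inhibitor that cytokines induce through STAT5 and that dampens signalling from their receptors. STAT6 is the transcription factor that interleukin 4 and interleukin 13 activate: the receptor chain IL-4Rα pairs with the common gamma chain or with IL-13Rα1, JAK kinases bound to these chains phosphorylate STAT6, and its dimers enter the nucleus and bind palindromes of the form TTC and GAA. In macrophages this pathway is known for inducing genes of alternative activation, such as Arg1, Retnla and Chil3, and for restraining inflammatory genes that NF-kappaB drives. Alveolar macrophages, the main resident cells of lavage fluid in an untreated lung, take up surfactant lipid and inhaled particles.

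Promoters of 6 genes whose levels differed between the groups are shown first, because the later results return to them; they were chosen with those levels known. Each is the 250 bases before the start of the gene in RefSeq (build GRCm38.p6), written 5′ to 3′ on the plus strand, with searched motifs in capitals. Hal lies at chr10:93488518-93488767 and Trp53i11 at chr2:93187298-93187547, and both were lower in Cis_Stat6_DKO. Cxcl2 lies at chr5:90903649-90903898, Cxcl3 at chr5:90785851-90786100, Il1f9 at chr2:24186226-24186475 and Srxn1 at chr2:152105274-152105523, and all 4 were higher.
Hal: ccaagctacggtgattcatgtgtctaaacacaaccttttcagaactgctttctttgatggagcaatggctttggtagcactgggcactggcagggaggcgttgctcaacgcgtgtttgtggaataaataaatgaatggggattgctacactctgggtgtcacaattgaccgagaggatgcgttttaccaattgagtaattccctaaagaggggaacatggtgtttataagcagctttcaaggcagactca
Trp53i11: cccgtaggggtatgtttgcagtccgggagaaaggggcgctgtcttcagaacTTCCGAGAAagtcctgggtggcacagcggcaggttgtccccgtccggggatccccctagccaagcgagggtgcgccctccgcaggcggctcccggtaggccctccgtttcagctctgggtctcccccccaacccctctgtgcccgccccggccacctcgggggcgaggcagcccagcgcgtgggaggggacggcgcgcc
Cxcl2: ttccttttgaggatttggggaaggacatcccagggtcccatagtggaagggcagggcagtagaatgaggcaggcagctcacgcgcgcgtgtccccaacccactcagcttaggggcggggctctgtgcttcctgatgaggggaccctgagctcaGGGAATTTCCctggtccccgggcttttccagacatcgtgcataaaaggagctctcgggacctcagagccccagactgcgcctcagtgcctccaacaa
Cxcl3: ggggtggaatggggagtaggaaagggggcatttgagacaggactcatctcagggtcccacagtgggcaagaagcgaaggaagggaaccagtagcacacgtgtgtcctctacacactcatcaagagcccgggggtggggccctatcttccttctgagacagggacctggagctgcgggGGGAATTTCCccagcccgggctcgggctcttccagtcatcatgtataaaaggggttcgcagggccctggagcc
Il1f9: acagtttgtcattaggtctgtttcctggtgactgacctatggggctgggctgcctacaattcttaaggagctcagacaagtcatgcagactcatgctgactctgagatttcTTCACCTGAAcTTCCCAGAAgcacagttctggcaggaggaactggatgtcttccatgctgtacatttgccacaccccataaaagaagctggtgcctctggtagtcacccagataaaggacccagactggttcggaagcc
Srxn1: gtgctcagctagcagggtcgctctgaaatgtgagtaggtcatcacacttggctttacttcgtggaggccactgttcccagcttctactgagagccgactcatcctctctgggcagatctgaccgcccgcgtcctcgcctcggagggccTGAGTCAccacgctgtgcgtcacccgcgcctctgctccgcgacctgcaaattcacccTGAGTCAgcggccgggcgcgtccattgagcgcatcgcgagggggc
Hal has no capitals because none of the searched motifs occurs in its stretch. In Trp53i11 the capitals mark the palindrome of TTC and GAA with a 3-base spacer, which several STAT proteins bind. Il1f9 holds the form with a 4-base spacer, which STAT6 is known to prefer, 139 to 130 bases before the start, and the form with 3 bases 128 to 120 bases before it. Cxcl2 and Cxcl3 share 1 run of letters, GGGAATTTCC, a match to the NF-kappaB motif of GGGA and TTTCC with any 1 base between, 97 to 88 and 73 to 64 bases before their starts. Srxn1 holds the AP-1 motif TGAGTCA at 102 to 96 and at 45 to 39 bases before its start.

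The same motifs were counted on both strands in RefSeq windows of 300 bases, from 250 before to 50 after the start. A window was given for 11 of the 20 genes called lower and 31 of the 40 called higher (calling is defined below), with all windows of a gene counted together. The palindrome with a 4-base spacer was in 0 of the 11 and 3 of the 31, against 2164 of all 27025 genes with a window (8.01%). The form with a 3-base spacer was in 1 of the 11 and 3 of the 31, against 9.55% of all genes. The NF-kappaB motif and TGAGTCA were added after values were seen. The NF-kappaB motif was in 0 of the 11 and, with Cxcl2 and Cxcl3, 2 of the 31, against 0.466% of all genes. TGAGTCA was in 1 of the 11, Sult2b1, and 1 of the 31, Srxn1, against 5.95%. These are counts of letters within these windows and say nothing of binding.

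Levels are given as CPM, a gene's reads scaled to library size with TMM factors, for the 2 libraries of a group in the order replicate 1, replicate 2. Library totals were 50762354 to 65937118 reads. Defining genes of alveolar macrophages were abundant in the 4 libraries: Siglecf stood at 232 and 177 CPM in Cis_KO and 201 and 139.9 in Cis_Stat6_DKO, Pparg at 184 and 183 CPM in Cis_KO and 205 and 185 in Cis_Stat6_DKO, and the chitinase-like Chil3 at 11570.0 and 6881 CPM in Cis_KO and 22278 and 31128 in Cis_Stat6_DKO. Cis_KO replicate 2 stood apart, with 3.29% of its reads on haemoglobin genes (at most 0.0366% elsewhere) and 15855 genes with a read (19641 or more elsewhere). It also held more of the neutrophil gene Ngp (0.328 and 85.1 CPM in Cis_KO and 0.433 and 0.7403 in Cis_Stat6_DKO), the club-cell gene Scgb1a1 (19.1 and 141 CPM in Cis_KO and 12.96 and 7.197 in Cis_Stat6_DKO) and the B-cell gene Cd79a (0 and 24.7 CPM in Cis_KO and 0.0722 and 0.247 in Cis_Stat6_DKO). In bulk RNA fewer cells of a type and less RNA per cell cannot be told apart. For that reason both Cis_KO libraries are printed for each gene described, and genes on which both lay on the same side were favoured.

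The targeted gene separated the groups. Stat6 stood at 264 and 221 CPM in Cis_KO, 31.6 and 25.5 in Cis_Stat6_DKO, and 233 and 227 in WT, so Cis_Stat6_DKO held 11.8% of the Cis_KO level. Both Cis_Stat6_DKO libraries were far below every other library, and both WT libraries lay within the range of Cis_KO. Stat6 (mm10 chromosome 10, 127642986 to 127660957) fell by 3.09 ± 0.20 (log2, SE, n = 2 libraries per group), with an adjusted p of 0.0061 in edgeR. Without Cis_Stat6_DKO replicate 1 or replicate 2 the adjusted p was 0.0577 and 0.11, at log2 changes of -3.26 and -2.94. Cish, lost in both groups, stood at 4.34 and 3.52 CPM in Cis_KO, 1.72 and 5.04 in Cis_Stat6_DKO, and 46.2 and 56.2 in WT. Its libraries overlapped between the mutants (log2 difference -0.23 ± 0.48, adjusted p 0.829). Reads remained on both targeted genes. With 1 count per gene in the files, reads from a part left by the targeting were not told apart from whole transcripts.

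Other parts of the interleukin 4 pathway were not called. The receptor chain Il4ra stood at 174 and 223 CPM in Cis_KO and 191 and 132 in Cis_Stat6_DKO, the common gamma chain Il2rg at 100.1 and 178 CPM in Cis_KO and 105 and 133 in Cis_Stat6_DKO and Il13ra1 at 82.6 and 65.7 CPM in Cis_KO and 114 and 108 in Cis_Stat6_DKO. Only Il13ra1 of these 3 had groups that did not overlap (log2 difference 0.58 ± 0.19, adjusted p 0.219). Over all tested genes the groups did not overlap for 27.9% upwards and 22.5% downwards. Among the kinases, Jak1 stood at 194 and 124 CPM in Cis_KO and 209 and 189.8 in Cis_Stat6_DKO, Jak3 at 26.5 and 59.4 CPM in Cis_KO and 29.3 and 26.1 in Cis_Stat6_DKO and Tyk2 at 101 and 96.5 CPM in Cis_KO and 109.7 and 83.1 in Cis_Stat6_DKO. The groups overlapped for all 3. Per length, as FPKM, which divides reads by gene length and library size, Stat6 stood at 58.9 and 38.9 in Cis_KO, against 17.8 and 12.7 for Stat3 and 11.3 and 7.02 for Stat5b. In Cis_Stat6_DKO Stat6 stood at 6.97 and 4.85 FPKM, below Stat3 (18.9 and 11.7) and Stat5b (10.7 and 6.40). Of the 31 tested receptor, JAK, STAT and inhibitor genes of a list of 33, Stat6 was called lower, none was called higher, and the median log2 change was 0.08, against 0.05 over all tested genes. Over all tested genes the median was 0.02 without Cis_KO replicate 2 and 0.20 without replicate 1. The pathway list stood at 0.03 and 0.07 in those fits.

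A gene is described as called, and as having risen or fallen, when its Benjamini-Hochberg adjusted p in edgeR's quasi-likelihood test was under 0.05. The files list 40564 genes, and 16765 had enough reads to be tested. Of these 60 were called (0.358%), 40 higher (0.239%) and 20 lower (0.119%) in Cis_Stat6_DKO. All 60 also had a gap of at least 2-fold between the nearest libraries of the groups after 0.5 CPM was added, which 354 tested genes had upwards (2.11%) and 116 downwards (0.692%). An unadjusted p under 0.05 was reached by 3064 genes (18.3%). DESeq2, another count model, called 1543 genes (9.2%), 771 higher (4.6%) and 772 lower (4.6%), and limma-voom 62 in all (0.37%). The shares in this paragraph are over all tested genes and are the ones to set beside the counts of listed genes below. The lists were chosen with earlier results of these data known, and some genes, such as Acod1, stand on more than 1 list. A higher share in a list is therefore a description and no test of enrichment. Without the deviant Cis_KO replicate 2 edgeR called 345 genes higher and 150 lower, and without Cis_KO replicate 1 it called 3578 and 2421. The DESeq2 set held all 60 genes. A fit without 1 Cis_KO library keeps 1 library of Cis_KO and takes no spread from that group. Its calls and p-values therefore cannot show that the 60 are stable. The same limit holds where 1 library of Cis_Stat6_DKO or WT is left out. Calls were fewer without a library of another genotype: 7 higher and 4 lower without Cis_Stat6_DKO replicate 1, 3 and 1 without Cis_Stat6_DKO replicate 2, 22 and 15 without WT replicate 1, and 18 and 11 without WT replicate 2. All 60 kept their direction in every alternative fit. Where 1 library was left out this was all but fixed in advance, because all 60 had the 2-fold gap between the nearest libraries.

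**Figure D1:**
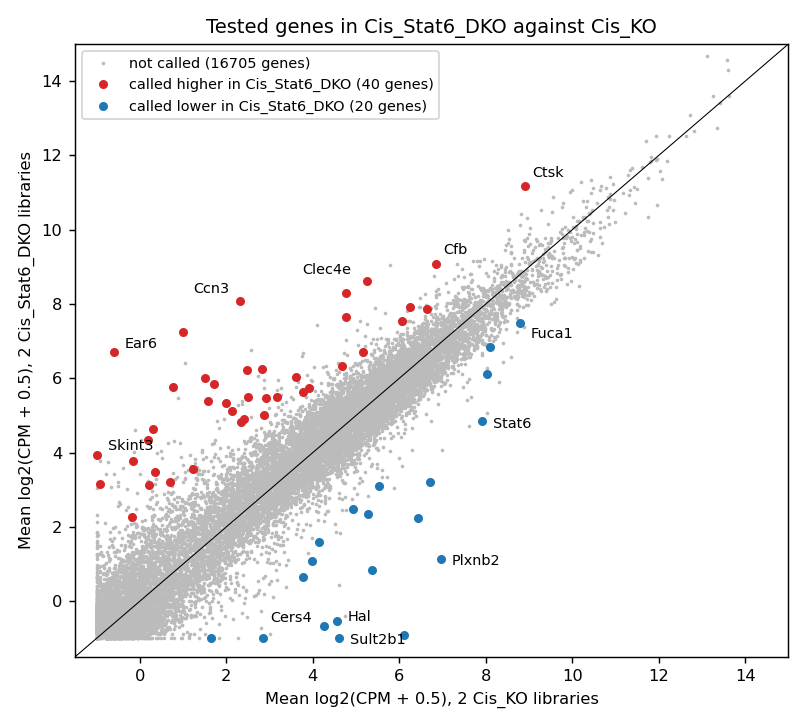
Mean log2(CPM + 0.5) of each of 16765 tested genes in the 2 Cis_KO libraries (horizontal) and the 2 Cis_Stat6_DKO libraries (vertical), with the line of equal levels. The 40 genes called higher (red) lie above the line and the 20 called lower (blue) below it, and Sult2b1, Hal and Cers4 lie at the bottom edge, near 0 CPM in Cis_Stat6_DKO.

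Genes called lower included several that were almost silent in Cis_Stat6_DKO. Sult2b1, a sulfotransferase that sulfates cholesterol, stood at 15.4 and 36.6 CPM in Cis_KO, 0 and 0 in Cis_Stat6_DKO, and 0.259 and 0.0585 in WT. It was at least 945-fold lower than in Cis_KO, taking 3 reads over the group as the limit of a count of 0 (adjusted p 0.0355). Both WT libraries were near 0 as well. Cers4, which makes ceramide by joining a fatty acyl chain to a sphingoid base, stood at 19.8 and 17.6 CPM in Cis_KO, 0.116 and 0.144 in Cis_Stat6_DKO, and 6.47 and 7.12 in WT. Hal, the enzyme that starts the breakdown of histidine, stood at 15.2 and 34.9 CPM in Cis_KO, 0.173 and 0.206 in Cis_Stat6_DKO, and 36.5 and 37.3 in WT. For both genes the Cis_Stat6_DKO libraries were close to unread, and the 4 libraries of the other genotypes were all well above them. Cers4 (chromosome 8, 4493026 to 4525122) fell by 7.16 ± 0.38 (log2, SE; adjusted p 0.00374), and Hal (chromosome 10, 93488768 to 93519304) by 7.04 ± 0.53 (adjusted p 0.00937).

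Against WT, where 22 of 16765 genes were called (0.131%), the same Cis_Stat6_DKO libraries were lower for Cers4 by 5.70 ± 0.36 (adjusted p 0.00988), for Hal by 7.60 ± 0.54 (adjusted p 0.00988) and for Stat6 by 3.01 ± 0.20 (adjusted p 0.00988). That comparison shares the Cis_Stat6_DKO libraries with the main one. Without Cis_Stat6_DKO replicate 1, Cers4 kept its call against Cis_KO (adjusted p 0.0445) and Hal did not (0.107). Without replicate 2 neither did (0.0625 and 0.151).

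Plxnb2, Coro2b, Fam171a1 and Brms1 fell, and for each of them both Cis_KO libraries lay above both WT libraries. Plxnb2, a plexin receptor for class 4 semaphorins, stood at 108 and 142 CPM in Cis_KO, 2.38 and 1.15 in Cis_Stat6_DKO, and 21.8 and 14.01 in WT. The nearest libraries of Cis_KO and Cis_Stat6_DKO were 37.6 times apart after 0.5 CPM was added, the widest gap of any of the 13 named lower genes. Plxnb2 fell by 6.13 ± 0.47 (adjusted p 0.00974). Coro2b, an actin-binding coronin, stood at 37.9 and 43.7 CPM in Cis_KO, 2.297 and 0.658 in Cis_Stat6_DKO, and 0.794 and 0.994 in WT, and Fam171a1, a membrane protein gene, at 17.8 and 9.82 CPM in Cis_KO, 0.925 and 1.21 in Cis_Stat6_DKO, and 1.14 and 0.862 in WT. For both, the Cis_Stat6_DKO libraries were within or close to the WT range. Coro2b fell by 4.77 ± 0.59 (adjusted p 0.0409) and Fam171a1 by 3.69 ± 0.48 (adjusted p 0.0451). Brms1, a component of histone deacetylase complexes, stood at 44.7 and 32.8 CPM in Cis_KO, 3.79 and 5.49 in Cis_Stat6_DKO, and 6.16 and 4.09 in WT, and fell by 3.06 ± 0.35 (adjusted p 0.0317).

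Wls, the carrier that brings Wnt proteins to the cell surface, stood at 273 and 276 CPM in Cis_KO, 114 and 112 in Cis_Stat6_DKO, and 97.8 and 93.3 in WT. Its replicates differed little, and Cis_Stat6_DKO lay close to WT. Wls fell by 1.28 ± 0.16 (adjusted p 0.0386). Fuca1, the lysosomal enzyme that removes fucose from glycoproteins, stood at 433 and 453 CPM in Cis_KO, 186 and 169 in Cis_Stat6_DKO, and 403 and 393 in WT. Here Cis_KO lay close to WT and Cis_Stat6_DKO below both, and the fall was 1.32 ± 0.17 (adjusted p 0.0418). Plekho1, a pleckstrin-homology protein that binds casein kinase 2, showed the same order at 35.1 and 59.5 CPM in Cis_KO, 8.26 and 7.75 in Cis_Stat6_DKO, and 38.3 and 32.6 in WT. Trp53i11, a p53-induced gene, stood at 17.1 and 17.2 CPM in Cis_KO, 3.21 and 1.93 in Cis_Stat6_DKO, and 11.3 and 9.02 in WT. Plekho1 fell by 2.56 ± 0.30 (adjusted p 0.035) and Trp53i11 by 2.73 ± 0.35 (adjusted p 0.044). The Trp53i11 promoter printed above holds TTCCGAGAA, 199 to 191 bases before the start.

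**Figure D2:**
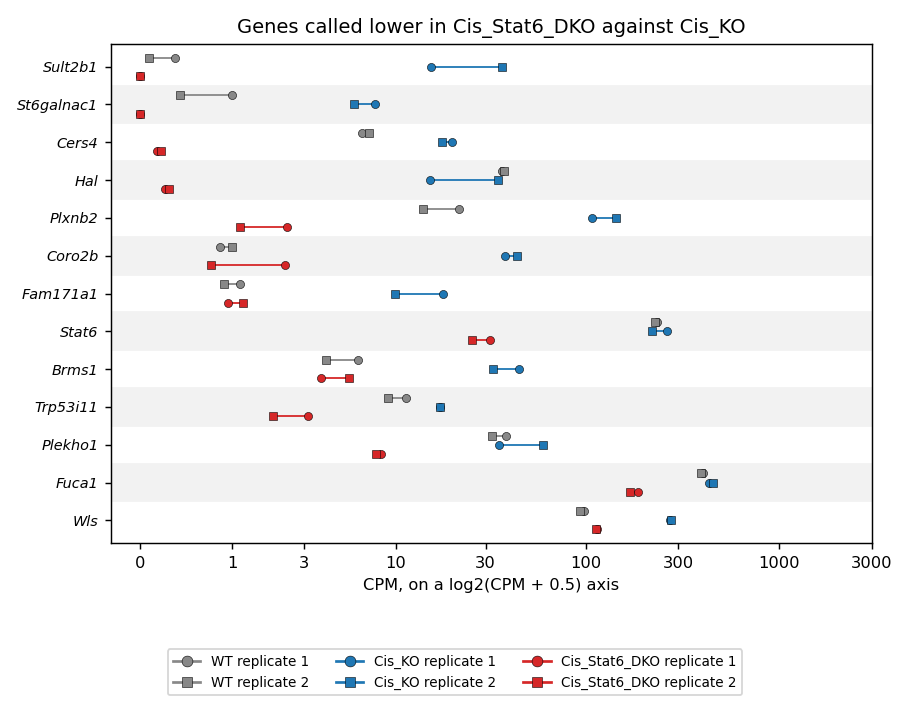
CPM of the 13 named genes called lower, on a log2(CPM + 0.5) axis, with 1 circle (replicate 1) and 1 square (replicate 2) per genotype joined by a line. Red Cis_Stat6_DKO points lie left of the blue Cis_KO points for each gene, and grey WT points lie near the blue for Stat6, Fuca1, Plekho1 and Hal and near the red for Wls, Brms1, Coro2b and Fam171a1.

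St6galnac1, which adds sialic acid to O-linked glycans, lies among neighbours that were also low or unread in Cis_Stat6_DKO. St6galnac1 (chromosome 11, 116765025 to 116775507) stood at 7.66 and 5.85 CPM in Cis_KO, 0 and 0 in Cis_Stat6_DKO, and 1.001 and 0.307 in WT, at least 272-fold lower in Cis_Stat6_DKO than in Cis_KO (adjusted p 0.0473). The antisense-annotated BC018473, whose end is 5.651 kb away, stood at 74.2 and 62.95 CPM in Cis_KO, 0 and 0.0617 in Cis_Stat6_DKO, and 7.54 and 5.202 in WT, with 3 reads in Cis_Stat6_DKO against 7502. Its ratio of Cis_KO to Cis_Stat6_DKO was 2734 (95% counting interval 935 to 13262; adjusted p 0.00528). Both genes were lower in every Cis_Stat6_DKO library than in any WT library, and both WT libraries were lower than both Cis_KO libraries.

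Of the 15 tested genes within 200 kb of St6galnac1, these 2 were called. The interval was centred on St6galnac1 because that gene was called, so it held a call in advance. The 2 calls therefore cannot be weighed against the 0.358% of all tested genes. St6galnac2, a second sialyltransferase of the family, stood at 33.4 and 20.8 CPM in Cis_KO, 0.636 and 0 in Cis_Stat6_DKO, and 5.66 and 3.04 in WT in the larger of its 2 gene entries (log2 change -6.33 ± 1.24, adjusted p 0.111). Cygb, a globin of stromal cells, stood at 5.85 and 9.84 CPM in Cis_KO, 0 and 0.0823 in Cis_Stat6_DKO, and 0.138 and 0.497 in WT (log2 change -7.65 ± 1.37, adjusted p 0.0955). Neither passed the threshold, though the groups did not overlap for either, as for 22.5% of all tested genes downwards. The smaller St6galnac2 entry and Mxra7 had no read in Cis_Stat6_DKO and under 1 CPM in Cis_KO (adjusted p 0.173 and 0.267), and Gm11735 and Prcd were also low (adjusted p 0.273 and 0.476). Of further genes of the interval, Rhbdf2 stood at 36.9 and 42.6 CPM in Cis_KO and 53.3 and 52.8 in Cis_Stat6_DKO, Srsf2 at 211 and 168 CPM in Cis_KO and 196 and 225 in Cis_Stat6_DKO and Mfsd11 at 41.6 and 40.6 CPM in Cis_KO and 47.1 and 52.1 in Cis_Stat6_DKO. Around Stat6 itself, the other 79 of the 80 tested genes within 2 Mb were not called in edgeR, while 16 of the 80 had an unadjusted p under 0.05, against 18.3% of all tested genes. Apart from Stat6, the smallest p among them belonged to Arhgap9, at 234 and 257 CPM in Cis_KO and 131 and 110.3 in Cis_Stat6_DKO (adjusted p 0.0877), B4galnt1, at 646 and 962 CPM in Cis_KO and 326 and 244 in Cis_Stat6_DKO (adjusted p 0.0905), and Cd63, at 181 and 271 CPM in Cis_KO and 437 and 757 in Cis_Stat6_DKO (adjusted p 0.145). The adjoining Nab2, which overlaps Stat6 on the opposite strand, stood at 58.9 and 76.6 CPM in Cis_KO and 51.5 and 35.1 in Cis_Stat6_DKO, and Lrp1 at 1004 and 1221 CPM in Cis_KO and 994 and 655 in Cis_Stat6_DKO. The sources used here do not say whether reads were counted by strand, so overlapping genes are uncertain.

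**Figure D3:**
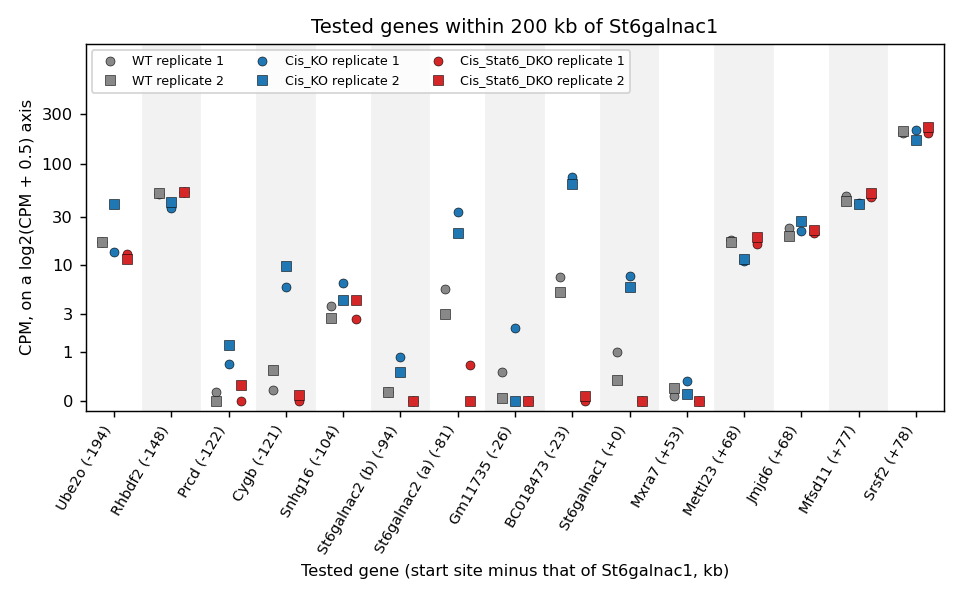
CPM per library, on a log2(CPM + 0.5) axis, of the 15 tested genes within 200 kb of St6galnac1, in order of the distance of their start sites from that of St6galnac1 in kb (circles replicate 1, squares replicate 2). Red Cis_Stat6_DKO points lie below 1 CPM for Cygb, both St6galnac2 entries, BC018473 and St6galnac1, whereas Rhbdf2, Mettl23, Jmjd6, Mfsd11 and Srsf2 have points of all genotypes close together.

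Of the 37 tested gene entries of sulfation and sialylation enzymes, 2 were called lower (5.41%, against 0.119% of all tested genes), Sult2b1 and St6galnac1, and none higher. DESeq2 called 8 lower and none higher, and limma-voom none. The median log2 change of the list was -0.35, against 0.05 over all tested genes. Chst15, which sulfates chondroitin, stood at 23.1 and 15.02 CPM in Cis_KO and 4.94 and 3.08 in Cis_Stat6_DKO (log2 change -2.24 ± 0.34, adjusted p 0.0673). Of 39 tested sphingolipid genes Cers4 was called lower and none higher, while DESeq2 called 2 higher and 1 lower. The median was 0.24, and 0.12 without Cis_KO replicate 2. Plexin and semaphorin genes had Plxnb2 called lower of 26 tested, and DESeq2 called 4 higher and 3 lower. Plxnd1, another plexin of this list, stood at 117 and 111 CPM in Cis_KO and 261 and 213 in Cis_Stat6_DKO, with the higher level in Cis_Stat6_DKO (adjusted p 0.09).

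Cxcl2, Cxcl3, Il1b, Il1f9 and Acod1, which act in acute inflammation, rose. Cxcl2, a chemokine for neutrophils, stood at 2.55 and 3.01 CPM in Cis_KO, 51.8 and 63.9 in Cis_Stat6_DKO, and 25.98 and 26.2 in WT. Its neighbour Cxcl3, 114 kb away and of like function, stood at 0.719 and 1.87 CPM in Cis_KO, 38.1 and 76.4 in Cis_Stat6_DKO, and 15.4 and 18.02 in WT. For both chemokines the lower Cis_Stat6_DKO library lay above all 4 others. Cxcl2 rose by 4.38 ± 0.24 (adjusted p 0.00374) and Cxcl3 by 5.49 ± 0.59 (adjusted p 0.0308). Il1b, the inflammasome-processed cytokine, stood at 5.77 and 4.498 CPM in Cis_KO, 84.7 and 64.5 in Cis_Stat6_DKO, and 15.4 and 20.4 in WT, again with both Cis_Stat6_DKO libraries on top. Il1f9, which encodes interleukin 36 gamma, stood at 0.484 and 0.822 CPM in Cis_KO, 16.7 and 23.5 in Cis_Stat6_DKO, and 19.5 and 15.6 in WT, so here Cis_Stat6_DKO lay within reach of WT. Il1b rose by 3.86 ± 0.28 (adjusted p 0.00937) and Il1f9 by 4.96 ± 0.40 (adjusted p 0.012). Acod1, which makes itaconate from an intermediate of the citric acid cycle, stood at 2.34 and 2.37 CPM in Cis_KO, 56.9 and 72.7 in Cis_Stat6_DKO, and 26.8 and 19.4 in WT, and rose by 4.78 ± 0.28 (adjusted p 0.0047).

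The other members of these families varied more. Of 23 tested chemokines of a list of 31, 2 were called higher (8.70%, against 0.239% of all tested genes), none lower, 6 had the 2-fold gap upwards, and DESeq2 called 6 higher and 1 lower. Limma-voom called 1 higher and none lower. The median log2 change was 1.23, and 2.25 without Cis_KO replicate 1. Ccl3, a macrophage chemokine, stood at 9.13 and 18.1 CPM in Cis_KO and 47.7 and 194 in Cis_Stat6_DKO, with 1 Cis_Stat6_DKO library several times the other (adjusted p 0.13). Cx3cl1, the membrane-bound chemokine fractalkine, lay the other way at 41.6 and 38.8 CPM in Cis_KO and 16.9 and 8.37 in Cis_Stat6_DKO (adjusted p 0.125). Of 20 tested genes of the interleukin 1 family and its processing, 2 were called higher (10.0%), none lower, and DESeq2 called 7 higher. The median was 0.72, with 0.43 without Cis_KO replicate 2 and 1.08 without replicate 1. Il1a stood at 14.3 and 10.3 CPM in Cis_KO and 43.97 and 79.6 in Cis_Stat6_DKO (adjusted p 0.0641) and the decoy receptor Il1r2 at 0.297 and 0 CPM in Cis_KO and 7.05 and 8.94 in Cis_Stat6_DKO (adjusted p 0.138). The receptor antagonist Il1rn overlapped between groups, at 276 and 287 CPM in Cis_KO and 280.3 and 379 in Cis_Stat6_DKO (adjusted p 0.557).

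Of 29 tested genes of classical macrophage activation 4 were called higher (13.8%, against 0.239% of all tested genes), none lower: Acod1, Il1b, Clec4e and Slc7a11. DESeq2 called 8 higher, against 4.6% of all tested genes. The median of this list was 0.82, and 7 of the 29 had the 2-fold gap upwards against none downwards. Over all tested genes 2.11% had the gap upwards. Ptgs2, the inducible cyclooxygenase, stood at 0.172 and 0 CPM in Cis_KO, 12.7 and 8.16 in Cis_Stat6_DKO, and 0.6901 and 1.43 in WT (adjusted p 0.0905). Tnf stood at 9.56 and 16.03 CPM in Cis_KO and 25.1 and 41.5 in Cis_Stat6_DKO (adjusted p 0.18). Among 30 tested NF-kappaB subunits and feedback inhibitors none was called in edgeR or limma-voom. DESeq2 called 9 of them higher, against 4.6% of all tested genes. In edgeR 12 had an unadjusted p under 0.05, all upwards, against 18.3% of all tested genes in either direction. The A20 gene Tnfaip3, an inhibitor of the pathway, stood at 36.1 and 26.1 CPM in Cis_KO and 75.7 and 93.5 in Cis_Stat6_DKO (adjusted p 0.077) and Nfkbia at 33.4 and 52.3 CPM in Cis_KO and 88.7 and 120.0 in Cis_Stat6_DKO (adjusted p 0.127). The subunit Nfkb1 differed little, at 105 and 99.4 CPM in Cis_KO and 115 and 107 in Cis_Stat6_DKO.

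Neutrophil markers differed between libraries as well. Summed over the 13 tested of 14 listed markers they reached 456 and 570 CPM in Cis_Stat6_DKO, 261 and 857 in Cis_KO and 388 and 345 in WT. None of the 13 tested was called in edgeR or limma-voom, while 6 had an unadjusted p under 0.05 and DESeq2 called 3 higher and 2 lower. S100a9 stood at 0.438 and 133 CPM in Cis_KO, 27.7 and 72.3 in Cis_Stat6_DKO, and 1.35 and 1.24 in WT, and Ly6g at 0.156 and 4.38 CPM in Cis_KO, 0.116 and 0.7197 in Cis_Stat6_DKO, and 0.293 and 0.0585 in WT. The part of such cells in the differences above was not tested.

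Clec4e, Clec4d, Cd300ld, Igsf6 and Gpr141, which encode receptors of the cell surface, rose. Clec4e, or Mincle, a receptor for mycobacterial glycolipid and dying cells, stood at 45.8 and 31.1 CPM in Cis_KO, 287 and 541 in Cis_Stat6_DKO, and 308 and 298 in WT. Clec4d, its partner receptor encoded 6.523 kb away, stood at 34.1 and 20.7 CPM in Cis_KO, 151 and 268 in Cis_Stat6_DKO, and 97.3 and 95.9 in WT. Both Cis_KO libraries of this pair were the lowest of the 6. Clec4e rose by 3.43 ± 0.36 (adjusted p 0.0308) and Clec4d by 2.94 ± 0.36 (adjusted p 0.0409). Clec4n, or Dectin-2, of the same cluster, stood at 511 and 522 CPM in Cis_KO and 947 and 1159 in Cis_Stat6_DKO without a call (adjusted p 0.104), and Clec4a2 overlapped between groups at 80.6 and 97.1 CPM in Cis_KO and 95.6 and 75.9 in Cis_Stat6_DKO. Of 25 tested C-type lectins 2 were called higher (8%) and none lower, and DESeq2 called 6 higher and 1 lower. The median was 0.29, with 0.13 without Cis_KO replicate 2 and 0.48 without replicate 1. Cd300ld, an activating receptor of the CD300 family, stood at 5.72 and 3.63 CPM in Cis_KO, 27.2 and 28.1 in Cis_Stat6_DKO, and 28.7 and 38.9 in WT, and rose by 2.56 ± 0.30 (adjusted p 0.0355). Igsf6, an immunoglobulin-superfamily receptor of myeloid cells, stood at 37.4 and 33.1 CPM in Cis_KO, 96.99 and 113 in Cis_Stat6_DKO, and 71.1 and 77.4 in WT (adjusted p 0.0355). The orphan receptor Gpr141 stood at 7.88 and 5.7998 CPM in Cis_KO, 27.7 and 36.7 in Cis_Stat6_DKO, and 6.44 and 6.898 in WT, higher in Cis_Stat6_DKO than in all 4 other libraries (adjusted p 0.041).

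Slc7a11, Srxn1, Ptgr1 and Slc11a2, genes of redox and iron handling, rose. Slc7a11, which imports cystine for glutathione synthesis, stood at 37.9 and 18.5 CPM in Cis_KO, 269 and 366 in Cis_Stat6_DKO, and 280.1 and 238 in WT. Srxn1, which reactivates oxidised peroxiredoxins, stood at 77.3 and 73.2 CPM in Cis_KO, 207 and 278 in Cis_Stat6_DKO, and 278 and 224 in WT. In both genes the Cis_KO libraries were low and the other genotypes overlapped. Slc7a11 rose by 3.49 ± 0.38 (adjusted p 0.0308) and Srxn1 by 1.69 ± 0.22 (adjusted p 0.0451). Ptgr1, which reduces prostaglandins and reactive aldehydes, stood at 25.8 and 23.9 CPM in Cis_KO, 74.5 and 85.2 in Cis_Stat6_DKO, and 70.5 and 68.5 in WT (adjusted p 0.0308), and the iron transporter Slc11a2 at 13.1 and 16.3 CPM in Cis_KO, 54.2 and 51.4 in Cis_Stat6_DKO, and 42.4 and 39.6 in WT (adjusted p 0.0308). Of 30 tested genes of the NRF2 antioxidant response 2 were called higher (6.67%, against 0.239% of all tested genes) and none lower. DESeq2 called 15 higher and 1 lower, against 4.6% of all tested genes each way. The median of this list was 0.83, and 7 had the 2-fold gap upwards against none downwards. Over all tested genes 2.11% had the gap upwards. Hmox1, which degrades haem, was just outside the threshold at 465 and 436 CPM in Cis_KO and 1262 and 1469 in Cis_Stat6_DKO (log2 change 1.60 ± 0.22, adjusted p 0.0523). Gsr stood at 34.4 and 38.4 CPM in Cis_KO and 123 and 162 in Cis_Stat6_DKO (adjusted p 0.0649) and Nfe2l2, which encodes NRF2, at 111 and 85.3 CPM in Cis_KO and 189 and 163 in Cis_Stat6_DKO (adjusted p 0.145).

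**Figure D4:**
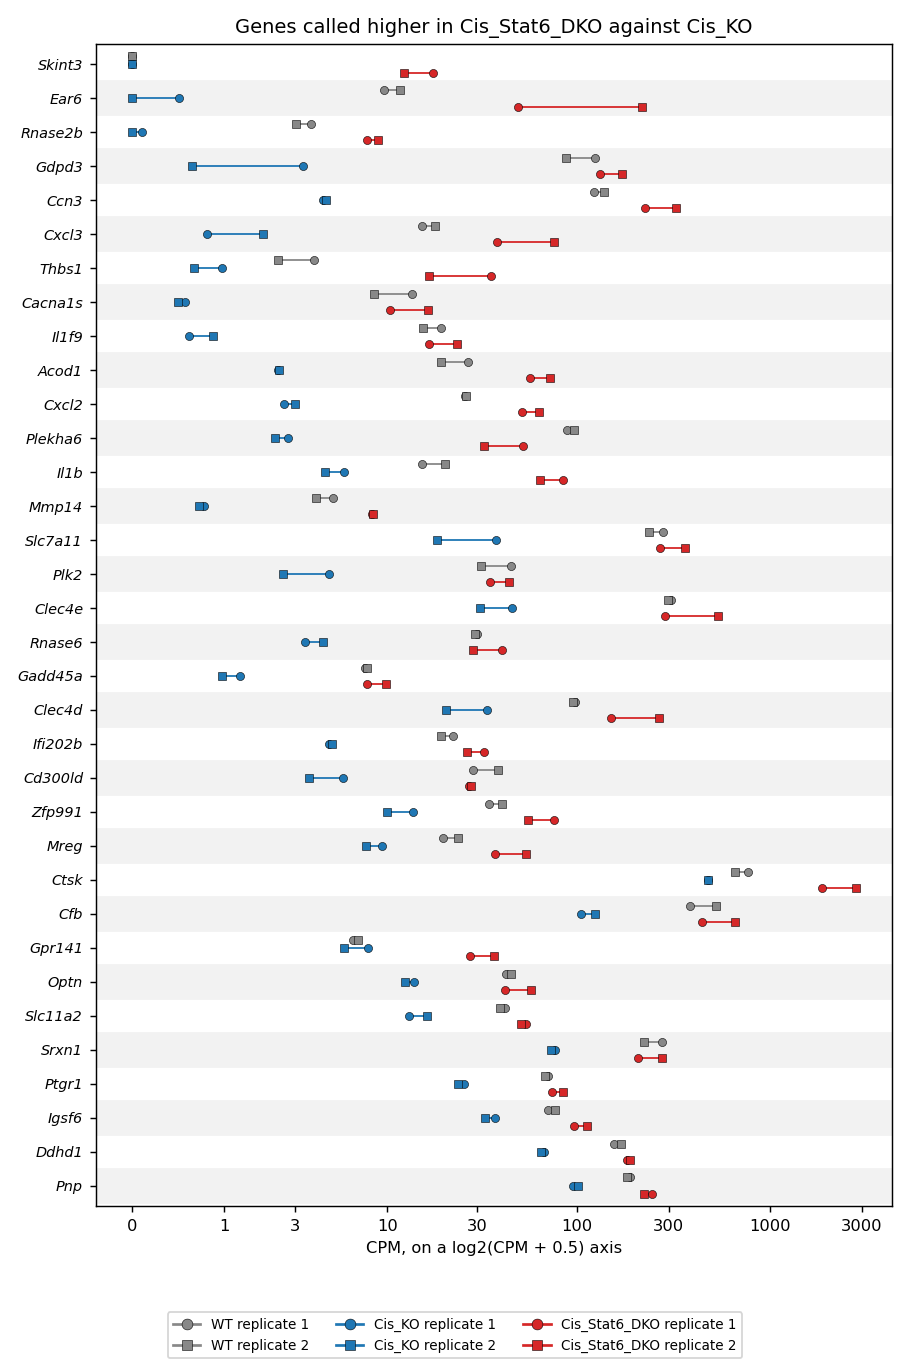
CPM of the 34 named genes called higher, on a log2(CPM + 0.5) axis, with 1 circle (replicate 1) and 1 square (replicate 2) per genotype joined by a line. Red Cis_Stat6_DKO points lie right of the blue Cis_KO points for each gene; for Skint3 the WT points lie with Cis_KO at 0, and for Gpr141 WT lies with Cis_KO between 5.80 and 7.88 CPM.

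Ctsk, Mmp14, Ccn3, Thbs1 and Cfb rose. Ctsk, a lysosomal protease that cleaves collagen, stood at 482 and 478 CPM in Cis_KO, 1871 and 2809 in Cis_Stat6_DKO, and 770.0 and 665 in WT. It rose by 2.28 ± 0.25 (adjusted p 0.0313), and both Cis_Stat6_DKO libraries exceeded all others more than 2-fold. Mmp14, a membrane-bound metalloprotease, stood at 0.688 and 0.617 CPM in Cis_KO, 8.21 and 8.35 in Cis_Stat6_DKO, and 4.99 and 3.97 in WT, and rose by 3.66 ± 0.41 (adjusted p 0.0313). Ccn3, a matricellular protein, stood at 4.41 and 4.54 CPM in Cis_KO, 225 and 329 in Cis_Stat6_DKO, and 123 and 138 in WT, and Thbs1, a thrombospondin that binds CD36 and activates TGF-beta, at 0.969 and 0.548 CPM in Cis_KO, 35.5 and 16.8 in Cis_Stat6_DKO, and 3.899 and 2.35 in WT. After 0.5 CPM was added, the nearest libraries of the mutants were 44.7 times apart for Ccn3 and 11.8 times for Thbs1. Ccn3 rose by 5.95 ± 0.28 (adjusted p 0.0037) and Thbs1 by 5.09 ± 0.57 (adjusted p 0.0313). Among 24 tested metalloproteases, plasminogen activators and inhibitors 1 was called higher (4.17%) and none lower, DESeq2 called 6 higher and 2 lower, and the median was 0.57. Limma-voom called none of them. Plau, the urokinase gene, stood at 4.204 and 5.43 CPM in Cis_KO and 21.5 and 37.9 in Cis_Stat6_DKO (adjusted p 0.0521) and the macrophage elastase Mmp12 at 9.49 and 7.72 CPM in Cis_KO and 32.2 and 79.1 in Cis_Stat6_DKO (adjusted p 0.0905). Of the 35 tested genes on the lysosomal list Ctsk was the only one called in edgeR, DESeq2 called 10 higher and 1 lower, and the median was 0.16. The lysosomal enzyme gene Fuca1, called lower above, is not on this list. Cfb, complement factor B, stood at 106 and 124 CPM in Cis_KO, 448 and 660.3 in Cis_Stat6_DKO, and 389 and 527 in WT, and rose by 2.27 ± 0.27 (adjusted p 0.0355).

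Rnase6, Rnase2b and Ear6, secreted ribonucleases of the RNase A family, rose. Rnase6, an antimicrobial ribonuclease of macrophages, stood at 3.44 and 4.38 CPM in Cis_KO, 40.7 and 28.8 in Cis_Stat6_DKO, and 29.9 and 29.5 in WT, and rose by 3.15 ± 0.27 (adjusted p 0.0169). Rnase2b, 30.1 kb from it, stood at 0.0625 and 0 CPM in Cis_KO, 7.74 and 8.94 in Cis_Stat6_DKO, and 3.71 and 3.03 in WT (adjusted p 0.0355), and Ear6 on the same chromosome stood at 0.375 and 0 CPM in Cis_KO, 49.6 and 218 in Cis_Stat6_DKO, and 9.64 and 11.7 in WT (adjusted p 0.0492). Cis_KO was nearly unread for the latter pair, and the Ear6 libraries of Cis_Stat6_DKO differed several-fold. Ear2 stood the other way at 1895 and 2168 CPM in Cis_KO and 1254 and 1103 in Cis_Stat6_DKO (adjusted p 0.181), as did Ear1 at 649 and 717 CPM in Cis_KO and 408 and 282 in Cis_Stat6_DKO (adjusted p 0.165). Of 9 tested family members of a list of 23, 3 were called higher (33.3%, against 0.239% of all tested genes) and none lower. DESeq2 called 5 higher and 2 lower, against 4.6% of all tested genes each way. Limma-voom called 1 higher, with adjusted p of 0.093 for Rnase2b and 0.267 for Ear6. Some members of this family, such as Ear genes, are near-identical copies, so reads can be split or shared among those. Eosinophils carry Ear genes too. Of their 8 listed markers 4 were tested, Ear6, Prg2, Alox15 and Siglecf, the last also a gene of alveolar macrophages. Their median log2 change was 3.04, 2 of the 4 had an unadjusted p under 0.05, both upwards, and Ear6 was the one called. Prg2 stood at 0 and 0 CPM in Cis_KO and 0.217 and 0.123 in Cis_Stat6_DKO, and Alox15 at 0.203 and 4.75 CPM in Cis_KO and 0.462 and 0 in Cis_Stat6_DKO. The untested Epx stood at 0.125 and 0 CPM in Cis_KO and at 0 in both Cis_Stat6_DKO libraries. Summed over the 4 tested markers, Siglecf included, levels were 233 and 182 CPM in Cis_KO, 251 and 358 in Cis_Stat6_DKO, and 193 and 222 in WT. The part of eosinophils in the result was not tested. Chromosome 14, which holds these ribonucleases, had 8 of its 581 tested genes called, all higher (1.38%, against 0.239% of all tested genes). It was singled out after the share of each chromosome was seen.

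Gdpd3 and Ddhd1, enzymes of phospholipid breakdown, rose. Gdpd3, a lysophospholipase D, stood at 3.36 and 0.525 CPM in Cis_KO, 133 and 172 in Cis_Stat6_DKO, and 125 and 88.3 in WT, and rose by 6.26 ± 0.82 (adjusted p 0.047). Ddhd1, a phospholipase A1, stood at 67.5 and 65.3 CPM in Cis_KO, 183 and 189 in Cis_Stat6_DKO, and 156 and 169 in WT, with a smaller rise of 1.49 ± 0.16 (adjusted p 0.0308). Of 41 tested genes of lipid uptake, storage and export none was called in edgeR, 23 had an unadjusted p under 0.05, DESeq2 called 9 higher and 7 lower and limma-voom 1 higher, and the median was -0.17. Of 25 tested genes of cholesterol synthesis and its control 16 had an unadjusted p under 0.05 upwards and 2 downwards, and the median was 1.03. Hmgcs1, which makes the precursor HMG-CoA, stood at 75.1 and 56.8 CPM in Cis_KO and 142 and 152 in Cis_Stat6_DKO (adjusted p 0.0905), and Sc5d, a sterol desaturase, at 12.3 and 6.76 CPM in Cis_KO and 31.3 and 38.8 in Cis_Stat6_DKO (adjusted p 0.0905).

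Skint3, of a family of immunoglobulin-superfamily genes best known from skin and thymus, had no read in WT or Cis_KO and stood at 17.7 and 12.2 CPM in Cis_Stat6_DKO. It was at least 555-fold higher than in Cis_KO (adjusted p 0.0308) and was also called against WT (adjusted p 0.042). Plekha6, a pleckstrin-homology protein, stood at 2.72 and 2.24 CPM in Cis_KO, 52.5 and 32.7 in Cis_Stat6_DKO, and 88.6 and 96.1 in WT, and rose by 4.10 ± 0.31 (adjusted p 0.00937). Its Cis_Stat6_DKO libraries lay between those of Cis_KO and WT. Cacna1s, a voltage-gated calcium channel subunit of muscle, stood at 0.438 and 0.365 CPM in Cis_KO, 10.3 and 16.6 in Cis_Stat6_DKO, and 13.6 and 8.51 in WT (adjusted p 0.0169). The stress-induced Gadd45a, a p53 target, stood at 1.31 and 0.959 CPM in Cis_KO, 7.79 and 9.87 in Cis_Stat6_DKO, and 7.56 and 7.70 in WT (adjusted p 0.0418). The kinase gene Plk2, also a p53 target, stood at 4.72 and 2.53 CPM in Cis_KO, 35.4 and 44.05 in Cis_Stat6_DKO, and 45.4 and 31.4 in WT (adjusted p 0.0308). Optn, an autophagy receptor, stood at 14.003 and 12.4 CPM in Cis_KO, 42.0 and 57.4 in Cis_Stat6_DKO, and 42.5 and 45.6 in WT (adjusted p 0.0355). Pnp, a purine-salvage enzyme, stood at 95.8 and 101 CPM in Cis_KO, 246 and 223 in Cis_Stat6_DKO, and 189 and 182 in WT (adjusted p 0.0451). The interferon-inducible Ifi202b stood at 4.72 and 4.93 CPM in Cis_KO, 32.7 and 26.7 in Cis_Stat6_DKO, and 22.5 and 19.4 in WT (adjusted p 0.0169). Mreg, a regulator of organelle transport, stood at 9.41 and 7.63 CPM in Cis_KO, 37.3 and 54.2 in Cis_Stat6_DKO, and 19.8 and 23.8 in WT (adjusted p 0.0313). The zinc-finger gene Zfp991 was at 13.7 and 10.001 CPM in Cis_KO, 76.3 and 55.3 in Cis_Stat6_DKO, and 34.9 and 40.6 in WT (adjusted p 0.0308). In 32 of the 34 named higher genes, all but Skint3 and Gpr141, WT lay above both Cis_KO libraries. In 10 of the 13 named lower genes WT lay below both Cis_KO libraries. The same Cis_KO libraries entered the calls that picked these genes, which favours genes extreme in Cis_KO. The share over all tested genes was not counted, so these counts do not show that the loss of STAT6 reversed an effect of CIS loss. Ifi202b, Zfp991 and Skint3 belong to multigene families with near-identical copies, and their counts are uncertain for that reason.

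Genes that interleukin 4 is known to induce were mixed. Of 36 tested members of a list of 40 none was called in edgeR or limma-voom, DESeq2 called 5 higher and 2 lower, and 11 had an unadjusted p under 0.05 in edgeR. The median log2 change was 0.09, close to the 0.05 of all tested genes, and 0.17 without Cis_KO replicate 1. Arg1 and Retnla, its classic markers, were hardly read: Arg1 stood at 0.563 and 0.639 CPM in Cis_KO and 2.66 and 0.206 in Cis_Stat6_DKO and Retnla at 0.0469 and 0 CPM in Cis_KO and 0.173 and 0.0823 in Cis_Stat6_DKO. Chil3, named with them at the start, was abundant. Its levels, given above, were higher in both Cis_Stat6_DKO libraries than in both Cis_KO libraries, without a call. Mrc1, the mannose receptor, overlapped between groups at 1402 and 776 CPM in Cis_KO and 1468 and 1146 in Cis_Stat6_DKO. Ptgs1, the constitutive cyclooxygenase, was lower in both Cis_Stat6_DKO libraries, at 9.11 and 9.77 CPM in Cis_KO, 1.86 and 2.899 in Cis_Stat6_DKO, and 10.1 and 8.64 in WT (adjusted p 0.0925). Chil4 was higher, at 29.9 and 9.11 CPM in Cis_KO and 239 and 122 in Cis_Stat6_DKO, with WT spread from 5.80 to 51.5 (adjusted p 0.219), and so was Cd36, a scavenger receptor, at 447 and 277 CPM in Cis_KO and 735 and 806 in Cis_Stat6_DKO (adjusted p 0.17).

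Of 12 tested MHC class II genes none was called in edgeR or limma-voom. DESeq2 called 8 of them lower, against 4.6% of all tested genes. In edgeR 8 had an unadjusted p under 0.05, all downwards, against 18.3% of all tested genes in either direction. The median log2 change was -1.58. Cd74, the invariant chain, stood at 324 and 448 CPM in Cis_KO, 119 and 76.3 in Cis_Stat6_DKO, and 198 and 122 in WT (adjusted p 0.0885), and Ciita, the transactivator of these genes, at 4.08 and 5.297 CPM in Cis_KO, 1.49 and 1.56 in Cis_Stat6_DKO, and 0.811 and 0.935 in WT (adjusted p 0.208). Both Cis_KO libraries were the highest of the 6 for each. Without Cis_KO replicate 2, which also held B-cell RNA, the median was -0.95. The tested B-cell markers summed to 140.0 CPM there, against 1.74 in Cis_KO replicate 1, 1.97 and 57.9 in Cis_Stat6_DKO and at most 6.33 in WT. The tested dendritic cell markers summed to 21.7 and 48.8 CPM in Cis_KO and 19.6 and 21.2 in Cis_Stat6_DKO. The part of either cell type in the difference was not tested.

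Further lists held few calls or none. In the cell-cycle list, Mcm5, a helicase subunit, stood at 120.4 and 128 CPM in Cis_KO and 58.5 and 61.3 in Cis_Stat6_DKO (adjusted p 0.0758) and Mcm2 at 92.6 and 93.4 CPM in Cis_KO and 47.2 and 44.5 in Cis_Stat6_DKO (adjusted p 0.0864). None of the 35 tested cell-cycle genes was called in edgeR or limma-voom, and DESeq2 called 2 higher and 7 lower, with 12 at an unadjusted p under 0.05 in edgeR and a median of -0.16. Of the 36 tested genes on the list of interferon-stimulated genes none was called in edgeR or limma-voom, and DESeq2 called 6 higher. The interferon-inducible Ifi202b, called higher above, is not on this list. An unadjusted p under 0.05 was reached by 11 listed genes, and the median was 0.66. It was 0.97 without Cis_KO replicate 2 and 0.26 without replicate 1. Gbp3 had the smallest p of them, at 8.502 and 6.39 CPM in Cis_KO and 24.2 and 21.8 in Cis_Stat6_DKO (adjusted p 0.0672). Of 40 tested alveolar macrophage genes Ctsk was the only one called in edgeR (2.50%), while DESeq2 called 12 higher and 8 lower and limma-voom 2 higher. The median was 0.25, with 0.10 without Cis_KO replicate 2 and 0.38 without replicate 1. The scavenger receptor Msr1 stood at 48.8 and 38.3 CPM in Cis_KO and 135 and 107 in Cis_Stat6_DKO (adjusted p 0.0672) and Marco at 637 and 889 CPM in Cis_KO and 1589 and 2249 in Cis_Stat6_DKO (adjusted p 0.131). Of 28 tested monocyte and interstitial macrophage genes none was called in edgeR or limma-voom, DESeq2 called 7 higher and 1 lower, 10 had an unadjusted p under 0.05, and the median was 0.18. It was 0.82 without Cis_KO replicate 2 and 0.41 without replicate 1. Cd14 of this list stood at 90.1 and 102 CPM in Cis_KO and 207 and 201 in Cis_Stat6_DKO (adjusted p 0.0725).

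Of 27 tested genes of eicosanoid metabolism Ptgr1 was called higher in edgeR (3.70%) and none lower, while DESeq2 called 4 higher and 7 lower. The median was -0.25, and 0.01 without Cis_KO replicate 1. Alox5, which starts leukotriene synthesis, stood at 297 and 317 CPM in Cis_KO and 167 and 118 in Cis_Stat6_DKO (adjusted p 0.106), and the lysosomal phospholipase Pla2g15 at 806 and 866 CPM in Cis_KO and 492 and 387 in Cis_Stat6_DKO (adjusted p 0.127). Amino acid catabolism had 1 called gene in each direction of 26 tested, Acod1 and Hal, and DESeq2 called 5 higher and 2 lower. Limma-voom called 1 higher and none lower. The median was 0.40. Arg2, the mitochondrial arginase, stood at 1.77 and 4.11 CPM in Cis_KO and 10.2 and 13.7 in Cis_Stat6_DKO (adjusted p 0.151). Of 23 tested matricellular and matrix genes Ccn3 and Thbs1 were called higher (8.70%) and none lower, and DESeq2 called 4 higher and 1 lower. Limma-voom called 1 higher and none lower. The median of 0.40 became -0.01 without Cis_KO replicate 2 and 1.38 without replicate 1. Spp1, or osteopontin, stood at 234 and 234 CPM in Cis_KO and 406 and 809 in Cis_Stat6_DKO (adjusted p 0.145).

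Of 23 tested immediate-early genes none was called in edgeR or limma-voom, 11 had an unadjusted p under 0.05, and DESeq2 called 5 higher and 2 lower. The median was 0.32. Atf3, a stress-induced transcription factor, stood at 21.1 and 19.8 CPM in Cis_KO and 49.9 and 84.4 in Cis_Stat6_DKO (adjusted p 0.101), and Egr1 at 3.77 and 6.03 CPM in Cis_KO and 14.4 and 16.5 in Cis_Stat6_DKO (adjusted p 0.165). Of 28 tested genes of glycolysis and hypoxia none was called in edgeR or limma-voom, 9 had an unadjusted p under 0.05, and DESeq2 called 3 higher and 1 lower. The median was 0.11, with 0.21 without Cis_KO replicate 2 and -0.02 without replicate 1. Hif1a, the hypoxia-inducible factor, stood at 139.8 and 56.1 CPM in Cis_KO and 269 and 309 in Cis_Stat6_DKO, with the Cis_KO libraries more than 2-fold apart (adjusted p 0.168).

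**Figure D5:**
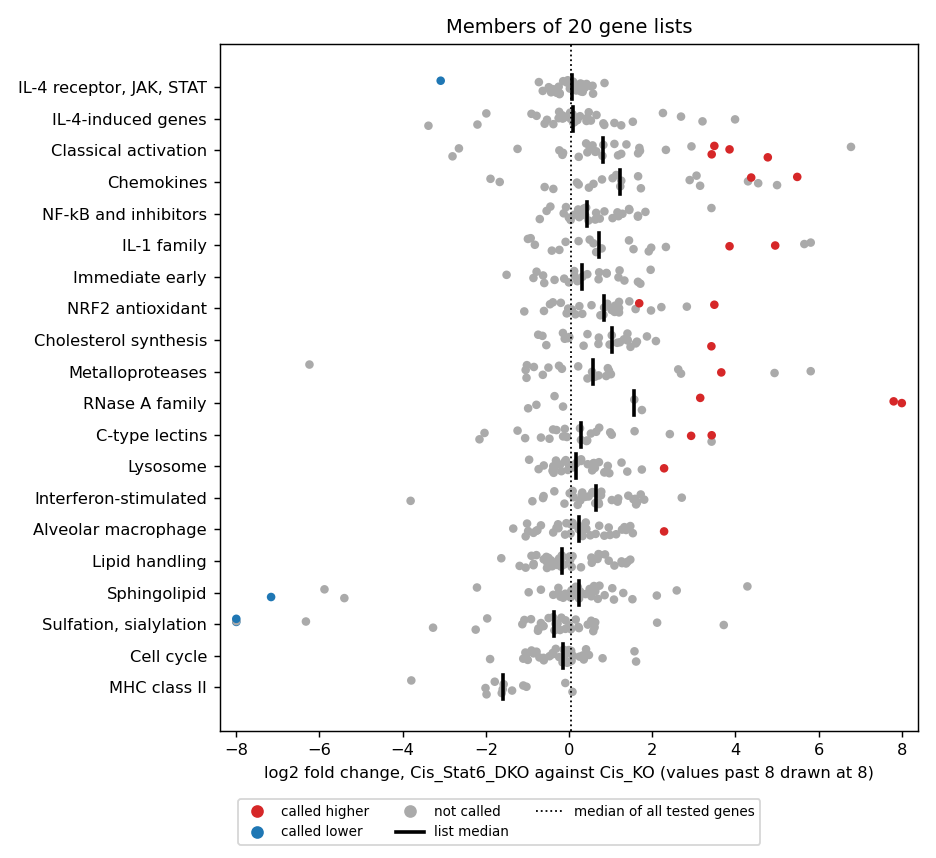
The log2 fold change of each tested member of 20 gene lists, Cis_Stat6_DKO against Cis_KO, with called genes in colour, the median of each list as a black bar and the median of all tested genes (0.05) as a dotted line. The RNase A family, chemokines and cholesterol synthesis have the highest medians (1.57, 1.23 and 1.03) and MHC class II the lowest (-1.58).

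Beyond the called genes, 170 others higher and 55 lower met the 2-fold gap with at least 5 CPM in the higher group, predicted genes left out. Those with the widest gaps were picked after their values were seen. Aloxe3, an epidermal lipoxygenase, stood at 0.0625 and 0 CPM in Cis_KO, 9.46 and 18.1 in Cis_Stat6_DKO, and 0.414 and 0.0877 in WT (adjusted p 0.0621). Slc10a6, a transporter of sulfated steroids, stood at 0 and 0 CPM in Cis_KO, 4.696 and 12.9 in Cis_Stat6_DKO, and 1.59 and 0.658 in WT (adjusted p 0.051). Both stayed below 2 CPM in Cis_KO and WT. Inhba, which forms activin A, stood at 0.359 and 0 CPM in Cis_KO, 4.78 and 21.2 in Cis_Stat6_DKO, and 1.05 and 1.56 in WT (adjusted p 0.145), and Hdc, which makes histamine from histidine, at 0.406 and 2.83 CPM in Cis_KO, 18.97 and 19.5 in Cis_Stat6_DKO, and 2.001 and 1.65 in WT (adjusted p 0.145). In Inhba 1 Cis_Stat6_DKO library was several times the other, while the Hdc libraries of that group agreed closely. Itgad, a leukocyte integrin subunit, differed between the Cis_KO libraries, at 7.85 and 0 CPM in Cis_KO, 94.4 and 75.96 in Cis_Stat6_DKO, and 76.9 and 85.7 in WT (adjusted p 0.227). On the lower side, Hr, a nuclear corepressor, stood at 26.8 and 21.03 CPM in Cis_KO, 1.199 and 0.555 in Cis_Stat6_DKO, and 11.4 and 2.76 in WT (adjusted p 0.0841), and Id3, an inhibitor of helix-loop-helix factors, at 6.55 and 15.05 CPM in Cis_KO, 0.867 and 0.7197 in Cis_Stat6_DKO, and 4.45 and 2.63 in WT (adjusted p 0.0716). Penk, which encodes proenkephalin, stood at 8.53 and 2.92 CPM in Cis_KO, 0.173 and 0.329 in Cis_Stat6_DKO, and 3.67 and 3.14 in WT (adjusted p 0.0841).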

How the data were processed

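Bulk RNA-seq of lavage cells was deposited as raw read counts per gene and as FPKM for each of 6 libraries, 2 per genotype. The authors deposited the counts on build mm10, per the submitters' processing notes; the sources used here give no aligner, counter, annotation or strand setting. FPKM values were made by the authors, per the file headers, and are rounded to 0.01. Of 40564 gene identifiers 40415 were in GENCODE M21. Counts were fitted with edgeR 4.0.16 (R 4.3.3; filterByExpr, TMM, quasi-likelihood F test, two-sided) over all 6 libraries, with Cis_Stat6_DKO minus Cis_KO as the contrast and Benjamini-Hochberg adjustment over 16765 genes. The fit had 3 residual degrees of freedom. DESeq2 1.42.0 and limma 3.58.1 gave alternatives. The members and gene lists were chosen with earlier results of these data known. Genes described are the called genes other than predicted genes, pseudogenes and antisense RNAs (BC018473, a neighbour of St6galnac1, was added after its values were seen), of at least 1 CPM in 1 group, and, of each list, its called members and up to 4 others of smallest p; further list members were picked after their values were seen. Of the 60 called genes 47 are of that kind, 10 are predicted genes, pseudogenes, antisense RNAs or histone copies, and 3 are not reported here. In data simulated on 15840 genes for this comparison, 39 of 62 genes with a log2 change of 2, 63 of 72 with 3 and 61 of 66 with 5 were called, and 14 unchanged genes were called. Changed genes were above 1 CPM on average, and all libraries shared the same means otherwise. The simulation thus held no deviant library such as Cis_KO replicate 2, and its rates may not hold for these data. Library totals of 50762354 to 65937118 reads set the precision of low counts; the bounds and the interval given for unread genes cover counting error only. Replicate numbers did not pair libraries (correlations of same-numbered deviations -0.03, -0.07 and 0.01).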

Additional observations from a re-analysis of the deposited data

How the results depend on the processing

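All 47 named genes kept their direction in each alternative fit. Those fits used the same libraries, and the 2-fold gap of these genes left little room for another outcome. Against 40 genes called higher and 20 lower, 18 and 11 were called with library totals unscaled, 969 and 871 without a filter on low counts, and 3 and 2 from only the 4 libraries of the 2 groups. DESeq2 called 771 and 772. On log2 FPKM with limma, 142 and 49 were called with a pseudocount of 1, 72 higher with 0.1, and 2 and 0 without a filter, where 1324 genes were lower at an unadjusted p under 0.05. With library quality weights in limma-voom, chosen after seeing the data, 9 were called higher and 14 lower. A replicate block gave 19 and 9, and Stat6 stayed called (-3.09, adjusted p 0.0104). Leaving out 1 library gave 3 to 3578 higher and 1 to 2421 lower. Stat6 lost its call from only the 4 libraries (-3.10, adjusted p 0.069) and on unfiltered FPKM (-2.84, 0.118), and ranged from -3.26 to -2.94 with 1 library left out. The 2-fold gap was met by 748 and 253 genes with 0.1 CPM added, 198 and 66 with 2 CPM, and 225 higher in FPKM, and by 505 to 2175 and 221 to 1546 with 1 library left out. Fewer libraries per group leave fewer to overlap; the cause of the other shifts was not tested. Another scaling moved the median of all genes from 0.05 to at most 0.08 and at least 0.04.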
